A study of Mus musculus with 24 samples.

Results

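TRiC, also called CCT, is the cytosolic chaperonin, a barrel of 2 stacked rings in which each ring holds 8 different but related subunits, Tcp1 (also called Cct1), Cct2, Cct3, Cct4, Cct5, Cct6a, Cct7 and Cct8. It closes around unfolded proteins in an ATP-driven cycle and is known above all for folding actin and tubulin. Prefoldin, a separate complex, holds newly made actin and tubulin chains and passes them to TRiC, and Pfdn5 is one of its subunits. All 8 TRiC subunits are needed in every ring, so the set is usually treated as one machine, and the question here was how far its mRNAs moved together after heat shock. Members were the genes whose spots carry exactly 1 symbol, equal to one of these 9 names. Of the 9, 8 were measured, among 6970 genes in all, and Cct6a was not analysed here.

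The study used 24 arrays with 2 channels each, one channel holding total RNA of treated mouse embryos and the other that of control embryos. Control embryos were cultured at 37 °C throughout, and heat-shocked embryos spent 15 min at 43 °C and then 1 h back at 37 °C in culture. Strain, age and the number of embryos behind an RNA sample were not given in the sources used here. There were 3 numbered treatments, and each was hybridised to 2 slide types with different spots, in both channel orders and with and without a suffix B in the slide code, which makes 4 arrays per treatment and slide type. Slide type 1 held 6 members on 14 spots (Tcp1, Cct3, Cct4, Cct5, Cct7 and Cct8). Slide type 2 held 5 members on 6 spots (Cct2, Cct4, Cct5, Cct7 and Pfdn5), so that Cct4, Cct5 and Cct7 were on both.

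Values are the authors' log ratios, called log units here, each array centred on its median over all spots. What base of log was used, and which channel was divided by which, was not stated in the sources used here. If the numerator is channel 1, the positive side means more signal from heat-shocked than from control RNA; if it is channel 2, every positive and negative below changes places. Centring lowered every mean by 0.30 on slide type 1 and by 0.083 on slide type 2, so a side is relative to the median spot, and a slide type 1 mean between −0.30 and 0 was positive before centring. Arrays of the same channel order on slide type 2 correlated as low as r = −0.34 over 7680 spots between treatments, and arrays of opposite order within a treatment, after the sign was turned, as low as −0.64. The lowest such values on slide type 1 were 0.29 and −0.031. The direction is therefore not settled for single arrays. The treatment means over both channel orders correlated at 0.70 to 0.80 on slide type 1 and 0.82 to 0.90 on slide type 2. The 3 treatments were used as replicates, and since nothing says that they came from separate litters, the p-values concern the spread between these treatments. A log ratio holds no level, so the labelled embryo tissue could not be checked against marker levels. In whole embryos, fewer cells of a type and less RNA per cell cannot be told apart.

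Stretches just before the start sites of 4 members are shown because Cct5, Cct7 and Pfdn5 passed the test on slide type 2, Cct3 had the lowest mean on slide type 1, and heat shock factor acts through elements near the start of its targets. The sequences are from RefSeq (GRCm38.p6), 5′ to 3′ on the gene's own strand, each ending at the base before the start site. The Cct5 stretch lies at chr15:31601847-31601966 (minus strand) and holds a heat shock element, TTCNNGAA, in capitals, at positions −34 to −27. The window of another Cct5 start site, at chr15:31601539, holds no such element. The Pfdn5 stretch at chr15:102325996-102326115 (plus strand) holds neither motif searched. In Cct3, at chr3:88297035-88297134 (plus strand), and Cct7, at chr6:85451405-85451504 (plus strand), capitals mark ATTGG, the reverse complement of CCAAT, the box bound by the factor NF-Y in many housekeeping promoters.
Cct5: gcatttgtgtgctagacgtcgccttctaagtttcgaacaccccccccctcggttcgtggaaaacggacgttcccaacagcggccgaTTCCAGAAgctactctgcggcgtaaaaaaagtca
Pfdn5: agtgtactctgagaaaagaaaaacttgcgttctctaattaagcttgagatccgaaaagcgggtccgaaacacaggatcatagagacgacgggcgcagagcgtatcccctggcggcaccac
Cct3: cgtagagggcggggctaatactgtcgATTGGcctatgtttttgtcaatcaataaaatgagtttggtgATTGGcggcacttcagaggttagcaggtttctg
Cct7: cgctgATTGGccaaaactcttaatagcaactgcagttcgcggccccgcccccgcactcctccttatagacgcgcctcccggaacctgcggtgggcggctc

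The promoter table held 10 windows for 8 of the 9 members, and none was used for Cct4. The 2-unit heat shock elements GAANNTTC and TTCNNGAA, which read the same on both strands, occurred in 12.8% of all 32851 windows when only the 250 bases before the start site were searched. Among members such an element lay in that stretch of the Cct5 start site shown and of a second Cct2 start site. The form with 3 units in a row, which 0.603% of all 300-base windows hold, occurred in none of the members' windows. CCAAT on either strand, a motif chosen after the promoter letters were seen, was searched in the 250 bases before the start site. It occurred in 33.8% of all windows and in 4 of the 10 member windows (40.0%), those of Tcp1, Cct3, Cct6a and Cct7. At least 2 copies occurred in 10.1% of all windows and in 3 of the 10 member windows (30.0%). These were Cct3 (2 copies), Cct6a (2) and Cct7 (3, of which 1 is in the stretch shown). These matches describe letters in a window and were not tied to the measured values. The stretches shown for Cct5 and Cct7 hold different motifs.

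Of the subunits on slide type 2, 1 was on the positive side and the others were on the negative side in every treatment. Cct4 had a mean of 0.26 log units, whereas Cct5, Cct7 and Pfdn5 had means of −0.18, −0.17 and −0.32, and these 4 passed limma's test with Benjamini-Hochberg adjustment at 0.05 over all genes. Cct2, with −0.13, did not. Calls are common on this slide type: 18.5% of its 4075 genes were called positive and 31.9% negative, 50.4% in all, so a call by itself says little about the members. The TRiC median of −0.15 compares with −0.049 over all genes.

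Pfdn5 had the lowest mean of the members. Its values were −0.28, −0.42 and −0.26 in treatments 1, 2 and 3, with a mean of −0.32 ± 0.092 (SD, n = 3; 95% interval −0.44 to −0.20; limma adjusted p = 0.000446). All 3 treatments were below 0, and over the 12 single arrays the values ran from −1.01 through a median of −0.27 to 0.12, with 9 arrays below 0. The call was lost with no centring of the arrays (−0.24, adjusted p = 0.361) and, at values that stayed negative, with heat-shocked RNA only in channel 1 (−0.26) or only in channel 2 (−0.38).

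Cct4, the delta subunit, stood apart from the other subunits on slide type 2, where it was measured on 1 spot. Cct5, Cct7 and Pfdn5 also had 1 spot each there. Its values were 0.23, 0.31 and 0.24 in treatments 1 to 3, with a mean of 0.26 ± 0.041 (SD, n = 3; 95% interval 0.14 to 0.38; adjusted p = 0.00167). None of its treatment values overlapped those of any other member on slide type 2. Over single arrays, however, it spread from −0.35 to 1.09 with a median of 0.26, and 5 of 12 arrays were below 0. Its call was lost with no centring (0.34, adjusted p = 0.199), with arrays scaled to a common spread (0.21, adjusted p = 0.0842), and with only channel 1 (0.063) or only channel 2 (0.45) holding heat-shocked RNA.

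Cct5 and Cct7, the epsilon and eta subunits, had nearly the same values. Cct5 had −0.15, −0.23 and −0.15 in treatments 1 to 3, with a mean of −0.18 ± 0.047 (SD, n = 3; 95% interval −0.30 to −0.056; adjusted p = 0.0174). Cct7 had −0.19, −0.16 and −0.14, with a mean of −0.17 ± 0.026 (SD, n = 3; 95% interval −0.29 to −0.048; adjusted p = 0.0223). Both were below 0 in all 3 treatments and in 9 of 12 arrays. Both calls were lost at smaller values with centring on spots with 1 symbol (Cct5 −0.10, adjusted p = 0.126; Cct7 −0.091, adjusted p = 0.159), no centring (−0.094 and −0.084) and arrays scaled to a common spread (−0.13 for both), and at similar values without treatment 1 (−0.19, adjusted p = 0.0693; −0.15, adjusted p = 0.156) or treatment 3 (−0.19, adjusted p = 0.0856; −0.18, adjusted p = 0.106). With single arrays and the treatment as a replicate block, Cct5 was still called (adjusted p = 0.0278) and Cct7 was not (0.0582), and with heat-shocked RNA in channel 1 alone both means were positive, at 0.060 and 0.15.

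Cct2, the beta subunit, had −0.11, −0.17 and −0.11 in treatments 1 to 3, with a mean of −0.13 ± 0.035 (SD, n = 3; 95% interval −0.25 to −0.014; adjusted p = 0.0584). Its 2 spots had means of −0.12 (adjusted p = 0.104 over all spots) and −0.15 (adjusted p = 0.0419), so that they lay on both sides of the threshold while differing by less than 0.05 units. Among all spots of slide type 2, 28.9% were called positive and 24.4% negative (53.3% in all), and of the 6 member spots 1 and 4 were. In the order of the means (Pfdn5, Cct5, Cct7, Cct2, Cct4), Cct5 and Cct7 lay 0.0098 apart and Cct7 and Cct2 0.033 apart. The first gap is smaller than both genes' SDs, and the second is smaller than the SD of Cct2, though not that of Cct7 (0.026). The gap from Pfdn5 to Cct5 (0.14) and that from Cct2 to Cct4 (0.39) held in each of the 3 treatments.

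**Figure D1:**
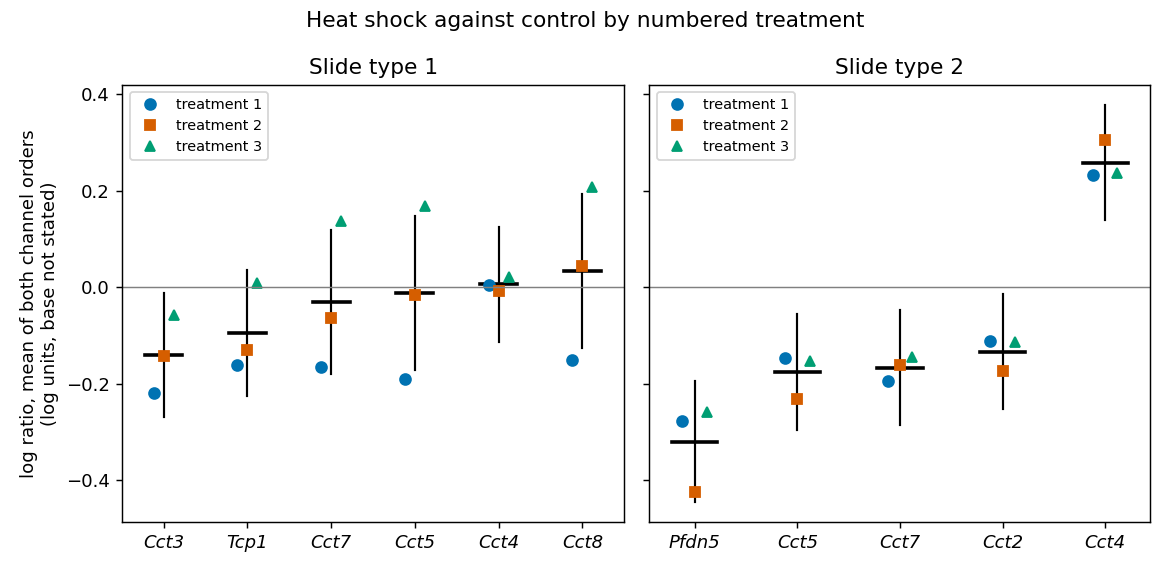
Mean log ratio of both channel orders (log units, base not stated) for each member in each numbered treatment on both slide types, with horizontal bars for the mean of the 3 treatments and vertical lines for limma's 95% intervals. On slide type 2 the treatments of each gene lie close together and Cct4 (0.23 to 0.31) is the only member above 0, whereas on slide type 1 treatment 3 is the highest for all 6 subunits.

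None of the 6 subunits measured on slide type 1 was called, against 5.73% of its 3838 genes called positive and 5.65% negative (11.4% in all). Their 14 spots held no call either, against 11% of all spots called positive and 5.09% negative (16.1% in all). At an unadjusted p under 0.05 limma picked 1 of the 6 genes, Cct3, as it did 24.0% of all genes. The median of the 6 genes was −0.021, beside −0.038 over all genes. Of the 6, 4 were below 0 and 2 above, and 32.9% of all genes were above 0. Without centring all 6 were above 0, from 0.16 to 0.34. Cct3, the gamma subunit, was lowest, with −0.22, −0.14 and −0.058 in treatments 1 to 3 and a mean of −0.14 ± 0.080 (SD, n = 3; 95% interval −0.27 to −0.012; limma unadjusted p = 0.035, adjusted p = 0.164). Its 4 spots differed little, with means from −0.15 to −0.14.

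The other 5 subunits of slide type 1 were nearer to 0. Tcp1, the alpha subunit, had −0.16, −0.13 and 0.0079 (mean −0.094 ± 0.090, SD, n = 3; adjusted p = 0.380), and its 2 spots had means of −0.10 and −0.087. Cct7 had −0.17, −0.063 and 0.14 (mean −0.031 ± 0.15), and Cct5 had −0.19, −0.016 and 0.17 (mean −0.012 ± 0.18), so both crossed 0 between treatments. Cct8, the theta subunit, had −0.15, 0.045 and 0.21 (mean 0.034 ± 0.18). Cct4 had 0.0037, −0.0074 and 0.021 (mean 0.0059 ± 0.015), which is the smallest spread, although its 2 spots had means of 0.090 and −0.079. The 95% intervals of Cct4, Cct5, Cct7 and Cct8 all span 0, the widest bounds being −0.18 for Cct7 and 0.19 for Cct8, and neighbours in the order of the means (Cct3, Tcp1, Cct7, Cct5, Cct4, Cct8) lay 0.018 to 0.064 apart. Each of these gaps is smaller than the SD of at least 1 of the 2 genes.

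For the 3 subunits on both slide types, the spots differ and the fits were separate, so the difference between slide types was not tested. Cct4 had means of 0.0059 and 0.26 on slide types 1 and 2, and its treatment values do not overlap between them. How many of the 943 genes on both slide types show such a lack of overlap was not counted. Cct5 had −0.012 and −0.18, and Cct7 −0.031 and −0.17. For both, the values of single treatments on the slide types overlap.

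Agreement among the subunits was read within each treatment, beside the spread over all genes. With both channel orders averaged on slide type 1, 5 of 6 subunits were negative in treatment 1 (median −0.16), 5 of 6 were negative in treatment 2 (median −0.039), and 5 of 6 were positive in treatment 3 (median 0.079). Most subunits thus shared a side within a treatment, and that side was not the same in all treatments; of all genes, 41.1%, 39.5% and 37.0% were positive in treatments 1, 2 and 3, so the negative side was also the common one. Their SD within a treatment was 0.078, 0.074 and 0.11, beside 0.18, 0.20 and 0.20 over all genes. In treatment 1 the exception was Cct4 at 0.0037, in treatment 2 it was Cct8 at 0.045, and in treatment 3 it was Cct3 at −0.058.

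Cct2, Cct5 and Cct7 on slide type 2 were negative, and Cct4 positive, in each of the 3 treatments. The subunit medians were −0.13, −0.17 and −0.13. Of all genes, 41.9%, 37.0% and 48.2% were positive in treatments 1, 2 and 3. All 4 subunits had an SD of 0.20, 0.25 and 0.19 within a treatment, beside 0.27, 0.25 and 0.23 over all genes. Leaving out Cct4, a choice made after its values were seen, the other 3 subunits had an SD of 0.042, 0.037 and 0.020. Pfdn5 lay below all of them each time.

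Split by channel order, the agreement took another form. In treatment 2 of slide type 1, all 6 subunits were positive with heat-shocked RNA in channel 1 (median 0.25, from 0.0097 for Cct3 to 0.41 for Cct8) and all 6 negative with it in channel 2 (median −0.31, from −0.39 for Cct7 to −0.26 for Cct5). In treatment 1 they were divided 3 and 3 in the first order (median −0.018) and all negative in the second (median −0.31). Treatment 3 went the other way, with 4 of 6 negative in the first order (median −0.013) and 5 of 6 positive in the second (median 0.18). All 6 subunits therefore shared a side in 3 of the 6 combinations of treatment and channel order on this slide type, and in 0 of the 3 treatments once the orders were averaged. In those combinations, 47.9% of all genes were positive in the first order of treatment 2 and 40.3% in its second. The share was 39.1% in the second order of treatment 1.

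The split on slide type 2 was widest in treatment 2. With heat-shocked RNA in channel 1, Cct2, Cct5 and Cct7 had 0.68, 0.55 and 0.76, and with it in channel 2 they had −1.03, −1.01 and −1.09. Cct4 ran opposite, with −0.33 and 0.94, and Pfdn5 had 0.080 and −0.93. In treatment 1 the orders lay closer: Cct2 had −0.095 and −0.13, Cct5 −0.27 and −0.023, Cct7 −0.26 and −0.13, and Pfdn5 −0.48 and −0.069, whereas Cct4 had 0.59 and −0.12. In treatment 3 Cct2 was positive in the first order (0.19) and negative in the second (−0.42), and Cct4 again ran the other way (−0.074 and 0.55), while Cct5, Cct7 and Pfdn5 were negative in both.

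**Figure D2:**
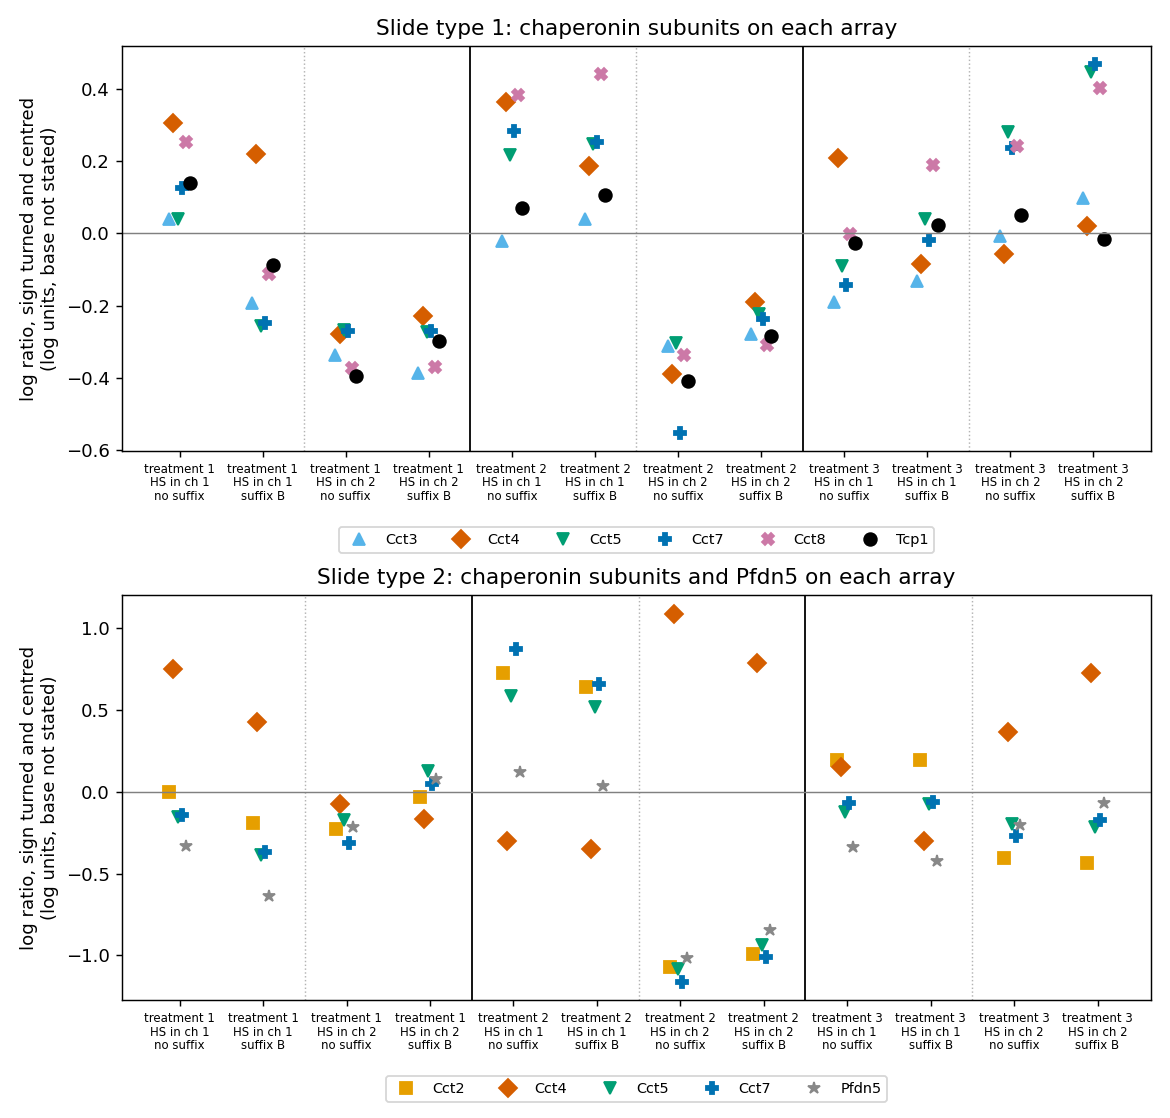
Centred log ratio with the sign turned where heat-shocked (HS) RNA was in channel 2 (log units, base not stated), for each member on each of the 12 arrays of a slide type, grouped by treatment, channel order and suffix B; each point is 1 gene on 1 array. On slide type 2 the treatment 2 arrays place Cct2, Cct5 and Cct7 between 0.52 and 0.87 in one order and between −1.16 and −0.94 in the other, with Cct4 on the opposite side.

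Array by array, all measured subunits were on one side of 0 on 6 of 12 arrays of slide type 1 (2 positive, 4 negative) and on 1 of 12 of slide type 2. Without Cct4, left out after its values were seen, these counts were 8 and 9. The range over the subunits was smaller than the SD of all genes on 5 arrays of slide type 1 and 2 of slide type 2. Without Cct4 it was smaller on 7 and 11. Leaving out a subunit can raise such counts but never lower them, so the increases are no evidence of agreement. Cct4 on slide type 2 was on the other side of 0 from Cct2, Cct5 and Cct7 on 8 arrays, above all 3 of them on 7 and below all 3 on 4. Its place relative to the others thus differed between arrays, and its mean was 0.063 over the arrays of the first order and 0.45 over those of the second.

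The channel order difference, the value with heat-shocked RNA in channel 1 minus that with it in channel 2, would be 0 for a gene that gave the same oriented log ratio in both orders. No member passed limma's test of it on either slide type. Of the genes on slide type 1, 15.8% did (8.16% positive and 7.66% negative), and all 6 subunits had a positive mean difference, from 0.091 for Cct5 to 0.39 for Cct4 (95% interval 0.100 to 0.675; adjusted p = 0.0674), beside a median of 0.10 over all genes. Cct8 had 0.32 (adjusted p = 0.216) and Tcp1 0.26 (adjusted p = 0.157). For slide type 2, 0 of 4075 genes were called by limma after adjustment, 357 had an unadjusted p under 0.05, and limma on arrays scaled to a common spread called 2 positive and 40 negative. The subunits had large differences there that changed between treatments: Cct2 had 0.034, 1.71 and 0.62, Cct5 −0.25, 1.56 and 0.11, and Cct7 −0.12, 1.85 and 0.16. Cct4 had 0.71, −1.26 and −0.62, and Pfdn5 −0.42, 1.01 and −0.24.

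Treatment 2 of slide type 2 had the widest channel order differences over all genes too, with an SD of 1.10 against 0.41 and 0.48 in treatments 1 and 3. Across the 4075 genes of slide type 2, the mean log ratio and the channel order difference correlated at r = −0.42, and at −0.033 across the 3838 of slide type 1; genes on one slide share arrays and are not independent. Of the 753 genes called positive on slide type 2, 67.9% had a negative channel order difference, as Cct4 has (−0.39), whereas 39.4% of all its genes do. Of the 1299 called negative, 91.5% had a positive difference, as Cct5 (0.47), Cct7 (0.63) and Pfdn5 (0.12) have, beside 60.6% of all its genes. The same share on slide type 1 was 92.6% of the 217 called negative, beside 65.0% of all genes there, so this feature of negative calls is found on both slide types. That of positive calls is not. Of the 220 genes called positive on slide type 1, 12.3% had a negative difference, beside 35.0% of all its genes. The part of the channel in these members' calls was not tested.

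**Figure D3:**
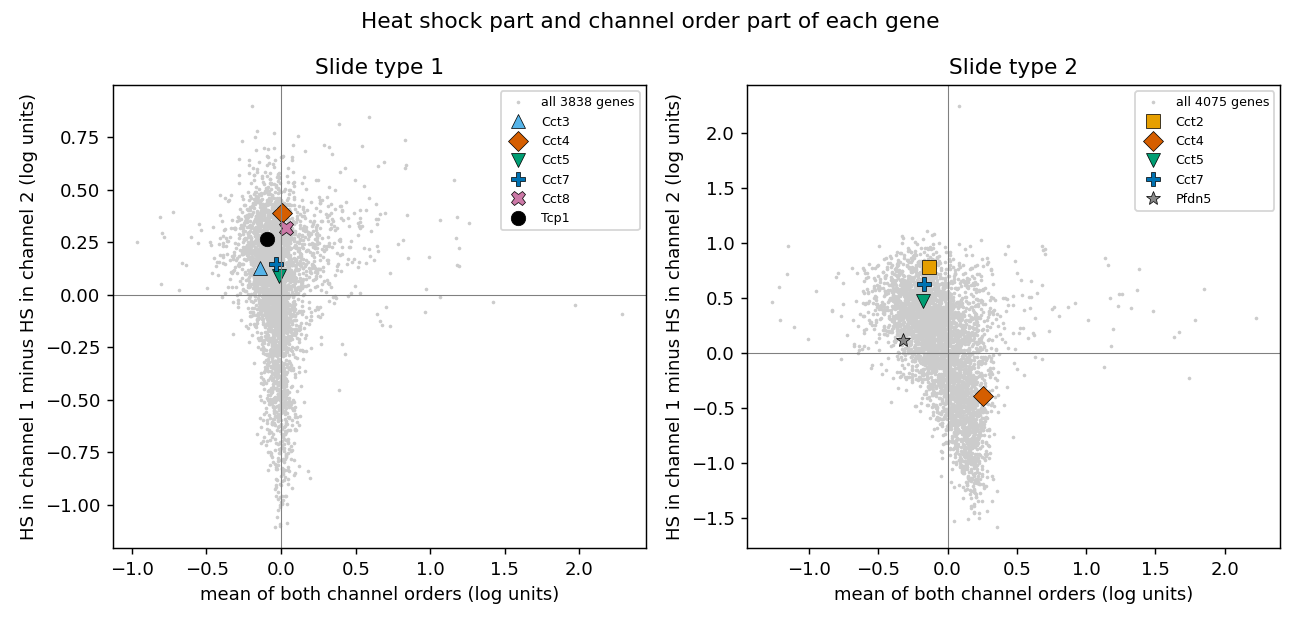
Each gene's mean over both channel orders (x axis, log units) against its channel order difference, HS RNA in channel 1 minus HS RNA in channel 2 (y axis, log units), for all genes (grey) and members (coloured) of slide type 1 (3838 genes) and slide type 2 (4075 genes). On slide type 2 the cloud slopes down to the right (r = −0.42), with Cct4 at 0.26 and −0.39 in its lower right and Cct2, Cct5 and Cct7 in its upper left.

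Over the 12 arrays of a slide type the subunits varied together, except that Cct4 on slide type 2 ran opposite to the others. The 15 pairs of subunits on slide type 1 had Pearson r from 0.49 to 0.97 with a median of 0.88. The 10 pairs without Cct4 had 0.77 to 0.97 and the 5 with it 0.49 to 0.84. Cct2, Cct5 and Cct7 on slide type 2 correlated at 0.95 to 0.99 among themselves and at −0.83 to −0.79 with Cct4. Pfdn5 correlated at 0.92 with Cct5, 0.88 with Cct7, 0.75 with Cct2 and −0.70 with Cct4. These are descriptions over arrays that share 3 treatments and 2 channel orders, so the channel order is part of each r, and no p is given.

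How many other genes were closer to a member than its fellow subunit was differed between pairs. Among the 10 pairs of slide type 1 without Cct4, the share of the 3837 other genes with a higher r than the pair, counted from 1 gene of the pair, ran from 0.0261% (Cct3 with Cct8, r = 0.964) through 0.261% (Cct5 with Cct7, r = 0.967) to 10.03% (Cct5 with Tcp1, r = 0.77). In the 5 pairs with Cct4 it ran from 8.36% (Tcp1) to 39.7% (Cct5). The shares on slide type 2 were 0.589% for Cct5 with Cct7 (r = 0.988), 9.18% for Cct2 with Cct7, 12.6% for Cct2 with Cct5, and 20.8%, 27.4% and 39.2% for Pfdn5 with Cct5, Cct7 and Cct2, so most of the high correlations there are matched by many other genes. The median r of all genes was 0.037 with Cct5 on slide type 1 and 0.39 on slide type 2, and with Cct4 on slide type 2 it was −0.42. The 5 genes other than members that most resembled the mean of the subunits over 12 arrays were Sf3b1, Ywhaq, Ppp1ca, Dynll2 and Hnrnpa3 on slide type 1 (r from 0.98 to 0.99) and Cnot9, Tmem256, Ptpn11, Hbb-b1 and Nudc on slide type 2 (r from 0.98 to 0.99). Likeness over arrays did not fix the mean, since Cnot9 was called negative at −0.37 (adjusted p = 8.52e-05) and Nudc, at 0.042 (adjusted p = 0.541), was not called.

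**Figure D4:**
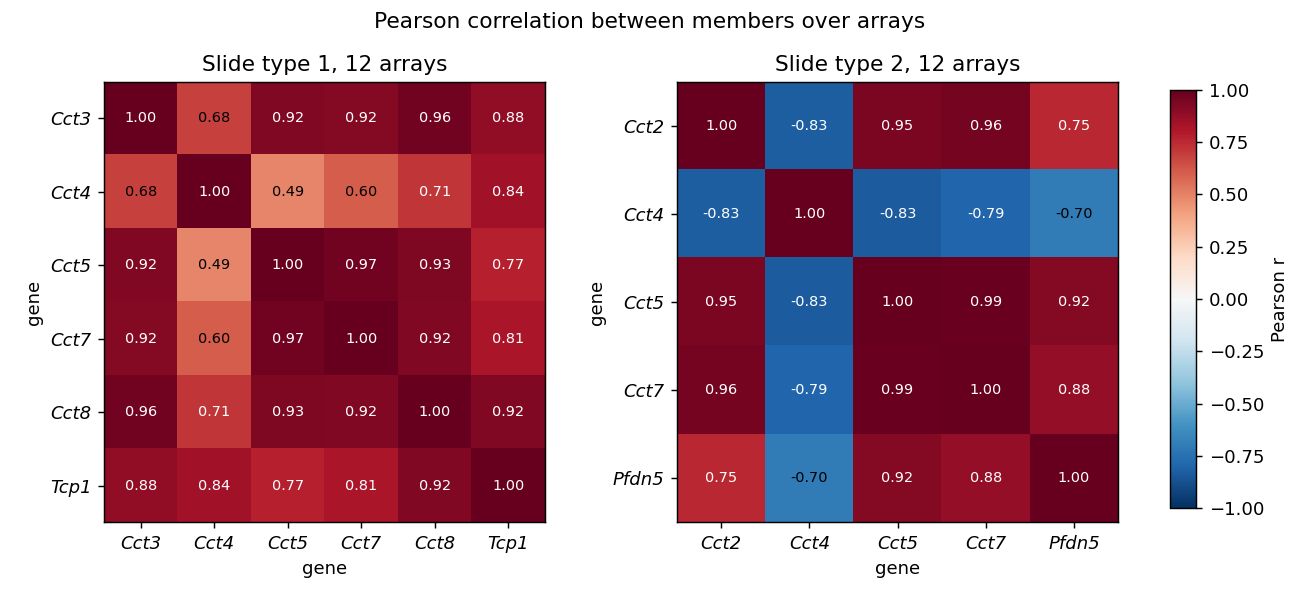
Pearson r between members over the 12 arrays of each slide type (both axes list genes; blue is negative and red positive). On slide type 1 every pair is positive and the lowest is Cct4 with Cct5 (0.49), whereas on slide type 2 Cct4 is negative with each of the other 4 members.

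The other genes of the folding route lay mostly on the negative side, as did most genes. Of all genes, 32.9% on slide type 1 and 42.1% on slide type 2 had a positive mean. The calls of single partners and clients were not run again with other centring or with 1 channel order. With no centring, 5 genes in all were called negative on slide type 1. Listed partners were the remaining prefoldin subunits, the prefoldin-like and R2TP proteins, which form a related complex with other clients, the phosducin-like cofactors of TRiC, and the tubulin cofactors, which take tubulin after it leaves TRiC. Of the 6 partners measured on slide type 1, 2 were called negative and none positive, on a background of 5.65% negative, with a median of −0.11 beside −0.038 over all genes. The 2 were Uri1, a prefoldin-like scaffold (−0.37 ± 0.061, SD, n = 3; limma adjusted p = 0.00210), and Pdcl, a phosducin-like cofactor (−0.27 ± 0.079; adjusted p = 0.0133). Of the prefoldin subunits there, Vbp1 had −0.13, Pfdn6 −0.090 and Pfdn4 −0.012, and none was called.

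Of 10 partners on slide type 2, 7 were called negative and none positive, with a median of −0.21, on a background of 31.9% negative. The lowest was Arl2, a small GTPase that works with the tubulin cofactors (−0.40 ± 0.15, SD, n = 3; limma adjusted p = 0.000133). Tbcb, a tubulin cofactor, had −0.27 (adjusted p = 0.00140), Pdcl3, a phosducin-like protein, −0.27 (adjusted p = 0.00174), and Uri1 −0.24 (adjusted p = 0.00401). Pfdn1, the one other prefoldin subunit on this slide type, had −0.17 ± 0.10 (adjusted p = 0.0268), on the side of Pfdn5. Pih1d1, an R2TP subunit, was the one partner above 0, at 0.11 (adjusted p = 0.0992).

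Known clients of TRiC had lower medians than its subunits on both slide types. Of 13 on slide type 1, 6 were called negative and none positive (median −0.20), on a background of 5.65% negative, led by Tubb4b, a beta tubulin (−0.39 ± 0.17, SD, n = 3; limma adjusted p = 0.00642), and Actb, cytoplasmic beta actin, on 10 spots (−0.32 ± 0.15; adjusted p = 0.0132). Of 8 on slide type 2, 6 were called negative and none positive (median −0.23), on a background of 31.9% negative, led by Actg1, cytoplasmic gamma actin (−0.60 ± 0.21; adjusted p = 6.18e-06), and Tubb5, another beta tubulin (−0.44 ± 0.16; adjusted p = 7.01e-05). The difference between clients and subunits was not tested. Tubb5 had −0.16 on slide type 1 (adjusted p = 0.123) and was not called there.

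The mitochondrial chaperonin was called on the positive side. Hspd1, the mitochondrial counterpart of TRiC known as HSP60 and a heat shock gene, had 0.32, 0.76 and 0.54 in treatments 1 to 3 on slide type 1, with a mean of 0.54 ± 0.22 (SD, n = 3; limma adjusted p = 0.00186). All 3 values lie above the highest treatment value of any TRiC subunit on that slide type (0.21, Cct8 in treatment 3). It was positive in both channel orders, with means of 0.70 and 0.38. Its partner Hspe1 and the testis subunit Cct6b were not analysed here. Of the 33 genes in 7 lists of cell type markers, 7 were measured on slide type 1 and 4 on slide type 2. Tubb3 (neural, −0.21), also a listed client, was called negative on slide type 1, where 5.65% of all genes were. Krt18 (trophoblast, −0.19) was called negative on slide type 2, where 31.9% of all genes were. On slide type 1 Krt18 had −0.11 and was not called (limma adjusted p = 0.380). No marker was called positive, and the ranges were −0.21 to 0.11 and −0.19 to 0.088. The part of cell composition in the members' values was not tested.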

How the data were processed

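The values are the authors' deposited log ratios, treated as a score with no stated unit; no source used here states the background correction, normalization, log base or numerator. Each of the 2 tables held 7680 spots and 12 arrays, with 0 missing values and 0 columns unmapped. Deposited array medians ran from −0.67 to 0.65 on slide type 1 and from −1.51 to 0.24 on slide type 2, and the median over all spots was subtracted from each array. The sign was turned where the labels put heat-shocked RNA in channel 2. Per treatment and slide type, 4 arrays were averaged with both orders weighted equally, giving 3 replicates. No spot intensities were used, so precision rests on the number of arrays and spots that were dim or saturated stayed in.

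Genes are means of spots with 1 symbol in the platform annotation (4749 spots with 1 symbol, 227 with several and 2704 with none on slide type 1; 4935, 275 and 2470 on slide type 2), and numbered 3838 and 4075. Tests used limma 3.58.1 (lmFit and eBayes on an intercept) in R 4.3.3, with Benjamini-Hochberg adjustment over all genes or spots of a slide type at 0.05, and were tested on simulated data. The members, lists and tests were chosen with earlier results of these data known. Genes named are all members and up to 4 per partner list with the smallest p (others only to complete a group). Also named are the 5 genes most like the subunit mean per slide type. Nudc, Pih1d1, Krt18, Stat3, Vhl and the uncalled prefoldin subunits were named after their values were seen. Alternatives changed centring, channel order, suffix, scaling, the prior, the joining of spots and the replicates. The planned comparison of protein sequences was not run here.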

Additional observations from a re-analysis of the deposited data

How the results depend on the processing

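No member of slide type 1 was called under any of the 14 alternatives. On slide type 2 Pfdn5 kept its call in 11, Cct4 in 10, Cct5 in 7 and Cct7 in 4 of 14, and Cct2 was called in none. With only heat-shocked RNA in channel 1, Cct5 turned to 0.060 and Cct7 to 0.15, and with it only in channel 2 they were −0.41 and −0.48; the cause was not tested. Members called positive and negative on slide type 2 (1 and 3) became 0 and 0 with no centring, with channel 1 only and with channel 2 only, 0 and 1 with arrays scaled, 1 negative with centring on spots with 1 symbol, and 1 to 3 negative when each treatment was left out in turn. No centring moved the median of all genes from −0.038 to 0.27 on slide type 1 and from −0.049 to 0.034 on slide type 2. The TRiC median minus the median of all genes, which centring cannot alter, was −0.10 on slide type 2, 0.14 there with channel 1 only and −0.33 with channel 2 only.

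Counts of genes called on slide type 1 (220 positive, 217 negative) became 5 negative with no centring, 119 negative with centring on spots with 1 symbol, 408 and 431 with channel 1 only, 69 and 125 with channel 2 only, and 141 and 75 with suffix B only. Leaving out a treatment gave 125 to 195 and 53 to 245. With the treatment as a replicate block on single arrays 428 were negative, and 473 with a channel term added, an alternative chosen after seeing the data. The block ended the call of Cct7 on slide type 2 (adjusted p = 0.0582; 0.0556 with the channel term) and no other member's. Negative spots (391) became 14, 221, 1140 (channel 1 only), 196 (suffix B), 654 (replicate block) and 678 (with channel term), and 234 to 430 without a treatment; positive spots (844) became 472 with channel 2 only. Channel order differences (313 and 294) became 2081 and 172 with no centring, and 25 to 831 and 150 to 513 without a treatment.

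On slide type 2 the genes called (753 and 1299) became 76 and 65 with no centring, 1249 and 861 with centring on spots with 1 symbol, 44 and 6 with channel 1 only, 13 and 11 with channel 2 only, and 211 and 539 with arrays scaled; without a treatment they were 293 to 983 and 934 to 1226. Spots called (2219 and 1877) became 422 and 135, 1205 negative, 213 and 13, 464 and 236, and 630 and 514 under the same settings, and 994 to 3038 positive without a treatment. Channel order differences (0 and 0) became 2 and 40 with arrays scaled, and 0 to 187 and 0 to 335 without a treatment.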

Other observations

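A spot of slide type 1 that carries 2 symbols, Zc3h15 and Cct3, was not counted as a member. Its values were −0.28, −0.14 and 0.0072 in treatments 1 to 3, with a mean of −0.14 ± 0.15 (SD, n = 3; limma adjusted p = 0.234 over all spots), beside −0.15 to −0.14 for the 4 spots that name Cct3 alone. The partner Uri1 was called negative on both slide types (−0.37 and −0.24), which none of Cct4, Cct5 and Cct7 was. Actg1 was likewise called negative on both, at −0.25 (adjusted p = 0.0352) and −0.60 (adjusted p = 6.18e-06). Of all genes, 5.65% were called negative on slide type 1 and 31.9% on slide type 2. How many of the 943 genes on both slide types were called negative on both was not counted. Of the other clients, Stat3 was above 0 on slide type 1 (0.15, adjusted p = 0.190) and Vhl on slide type 2 (0.080, adjusted p = 0.264), and neither passed limma's test. On slide type 2 Stat3 was below 0, at −0.028 (limma adjusted p = 0.715).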
